A study of Mus musculus with 12 samples.

Results

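Whole-lung RNA-Seq was used to follow the collagen genes of the mouse one by one. A gene was taken as a collagen when it was protein coding and its symbol was Col, a type number, the letter a and a chain number. The rule found 44 of the 55487 genes in the count table. They comprised 11 fibrillar collagens, 8 collagens of basement membranes and 25 others. The others were the 6 chains of type VI, 9 fibril-associated collagens, 3 short-chain network collagens, 4 transmembrane collagens and the single chains Col7a1, Col26a1 and Col28a1. *Col4a3bp*, a lipid carrier named for a collagen, was left out by the rule. All 44 genes passed edgeR's filter on low counts and were among the 45828 genes tested.

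A collagen is a helical rod of several chains, and each chain has a gene of its own. Fibrillar collagens line up into the fibrils that carry tension in the walls of vessels, airways and alveolar septa, and fibroblasts make most of them. Type IV chains form the sheet under epithelia and endothelia, with types XV and XVIII at its edges. The fibril-associated chains coat fibrils, type VI forms beaded filaments near cells, and the transmembrane collagens sit in the plasma membrane.

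The lungs came from *miR-30a*-/- mice on the C57BL/6J background, taken on postnatal day (PND) 21. A CRISPR/Cas9 deletion of the *miR-30a* gene was carried by every animal, controls included, so that no comparison below is with an intact *miR-30a*, and wild-type lungs were not analysed here. Pups breathed hyperoxia (95% FiO2) or room air from PND 1 to PND 5, and hyperoxia-exposed pups then recovered in room air. There were 4 groups of 3 lungs: hyperoxia-exposed females, room air females, hyperoxia-exposed males and room air males, and a lung is named by its group and animal number. Pups of several litters were pooled and redistributed between exposures, and the litter of each animal is not labelled.

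The 12 libraries held 8763033 to 16741694 gene counts, with a median of 11942546, and CPM below are counts scaled by the normalized library size. *Xist* and *Ddx3y* matched the labelled sex in 12 of 12 lungs, and *Mir30a* had 0 counts in all 12. With no wild-type library analysed, those 0 counts are no test of the deletion. Defining lung genes were abundant, with *Sftpc*, the surfactant protein of type 2 cells, at a median of 2806 RPKM, the CPM per kilobase of exon. Genes that the lung should not use were not at 0. Olfactory and vomeronasal receptor genes, 2003 in all, took 0.453% to 1.04% of the counts of a lung, and their reads per kilobase served as an estimate of background. In 2 lungs other features stood apart. Room air male 1 had 2777 CPM on 12 skeletal muscle genes, against 167 to 280 in the other 11 lungs, and hyperoxia male 2 had the fewest counts and the largest receptor share. Counts were summed over whole lungs, where fewer cells of a type and less RNA per cell cannot be told apart.

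Collagen transcripts together took 0.455% to 0.792% of all counts. The lowest share was in hyperoxia male 2 and the highest in room air female 5, which were also the lungs with the highest and the lowest receptor share. Shares ran from 0.597% to 0.792% in the 6 room air lungs and from 0.455% to 0.731% in the 6 hyperoxia lungs, and the ranges overlapped.

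Levels of the 44 genes per kilobase spanned a 62.2-fold range of medians over the 12 lungs. *Col4a1* and *Col4a2*, the chains of the common type IV network, came first with 124 and 102 RPKM, and *Col4a1* lay above *Col4a2* in 12 of 12 lungs. *Col1a1*, the main chain of type I fibrils, followed with a median of 84.0 RPKM and a range of 47.7 to 145 RPKM. *Col6a1* of the type VI filaments stood at 70.8 RPKM and *Col3a1*, the chain of the thin type III fibrils, at 53.0 RPKM. These 5 genes kept their places against the next gene in 9 to 12 of the 12 lungs.

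A second tier held 10 genes between 11.7 and 31.3 RPKM: *Col4a3*, *Col6a2*, *Col1a2*, *Col4a4*, *Col6a3*, *Col4a5*, *Col5a1*, *Col23a1*, *Col13a1* and *Col5a2*. The order of *Col4a3* and *Col6a2* was not fixed, since *Col4a3* was the higher in 5 of 12 lungs. *Col23a1* and *Col13a1*, transmembrane collagens, stood at 13.7 and 12.2 RPKM and were the highest of the other class outside type VI. The remaining 29 genes had medians under 10 RPKM, down to 1.98 RPKM for *Col11a1*. Of the 43 neighbours in the order of levels, 6 kept the same order in all 12 lungs, and for 13 of them the gene with the lower median was the higher of the pair in at least 6 lungs. Exons of 13 collagens overlapped those of another gene, by at most 6.07% of exon length (*Col9a3* with *Tcfl5*, on the opposite strand).

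**Figure D1:**
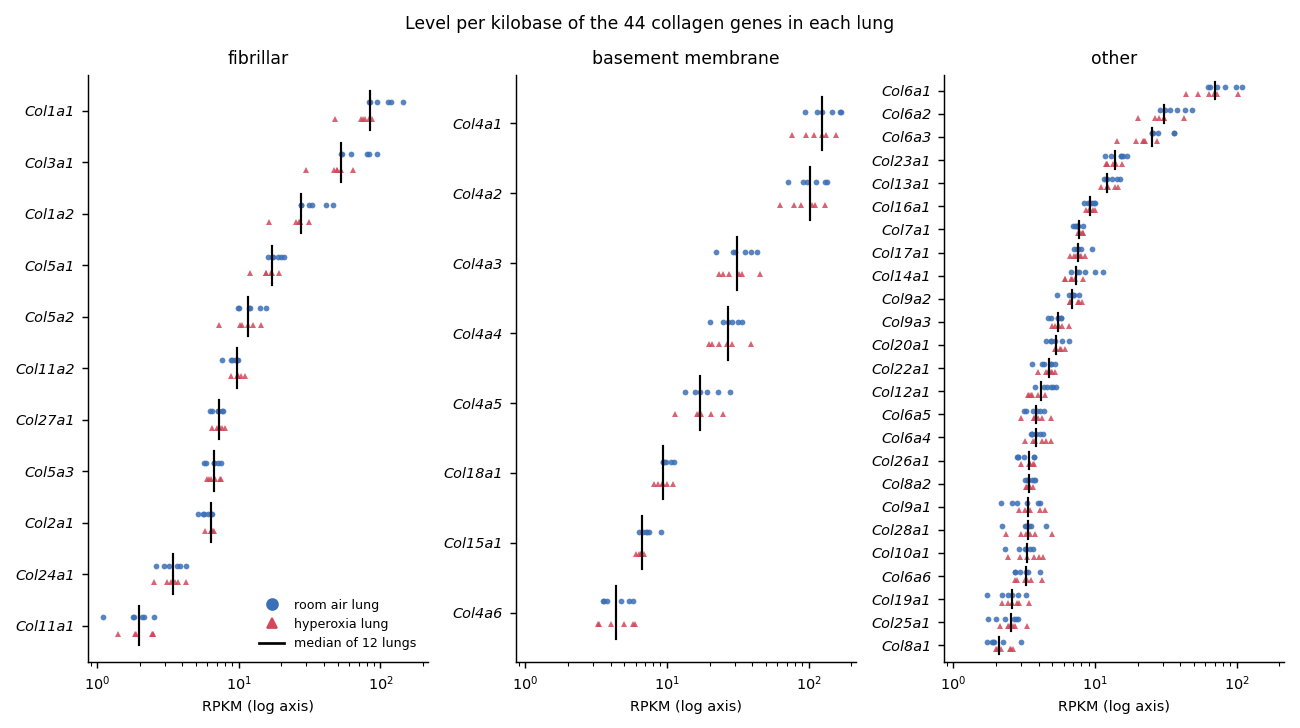
Level of each of the 44 collagen genes in RPKM (log axis) in 6 room air lungs (circles) and 6 hyperoxia lungs (triangles), with the median of the 12 lungs as a bar, by class. Medians run from 124 RPKM for Col4a1 to 1.98 RPKM for Col11a1.

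Background reads made up little of the abundant genes and much of the rare ones. Their estimated share had a median over lungs of 1.02% for *Col4a1*, was under 10% for 14 genes, was over 30% for 14 genes and reached 61.6% for *Col11a1*. Many genes of the low tier are chains known from cartilage, *Col2a1* at 6.38 RPKM, *Col9a1* at 3.35, *Col9a2* at 6.91, *Col9a3* at 5.50, *Col10a1* at 3.29, *Col11a2* at 9.72 and *Col11a1*. Background shares of these chains ran from 12.9% for *Col11a2* to 61.6% for *Col11a1*. The 13 other cartilage markers summed to 151 to 174 CPM in every lung. Their background shares ran from 10.3% for *Chad* to 106% for *Epyc*, with 40.6% for *Acan*, the large cartilage proteoglycan. How much of the signal of these low genes is transcript of lung cells was not tested.

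Hyperoxia was first compared with room air over both sexes, as the mean of the 2 sex-specific differences. In edgeR's quasi-likelihood test 0 of the 44 collagens were called, which took an adjusted p under 0.05 together with a change of more than 1.5-fold, where 0.0415% of all genes tested were called. DESeq2's Wald test also called 0. Without a threshold, 22 collagens had higher and 22 lower values, where 44% of all genes tested were lower. At an unadjusted p under 0.05 there were 6 collagens with lower values after hyperoxia, where 2.52% of all genes were lower at that level, and 0 with higher values, against 2.67% of all genes. The smallest adjusted p among the 44 was 0.927, and DESeq2 gave 7 collagens with lower values and an unadjusted p under 0.05. No share of all genes was taken for that DESeq2 count.

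The direction of the values differed with level. All 15 collagens with a median of at least 10 RPKM had lower values after hyperoxia, with a median log2 fold change of -0.19. Over all 2983 protein-coding genes at that level 91.8% were lower and the median was -0.16, so that the direction of the abundant collagens was that of abundant genes at large. Of the 29 collagens under 10 RPKM, 7 had lower values, with a median of 0.06. With other scaling, 15 of the 15 abundant and 10 of the 29 low collagens were lower with TMM, and 15 and 11 with DESeq2. In a fit with the log2 receptor share as covariate 10 of the 15 and 14 of the 29 were lower. Over the 12 lungs, log2 CPM of the 15 abundant genes fell with the log2 receptor share, with Pearson's r between -0.951 and -0.682, whereas the other 29 genes had r between -0.787 and 0.947. These values share the libraries' composition, and the part of the receptor share in the differences by exposure was not tested.

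By class, the median log2 fold change was 0.01 for the 11 fibrillar genes, -0.09 for the 8 basement membrane genes and 0.06 for the 25 others, beside 0.03 for all genes tested. The values ran from -0.54 to 0.13 in the fibrillar class, from -0.22 to 0.01 in the basement membrane class and from -0.44 to 0.17 in the others.

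**Figure D2:**
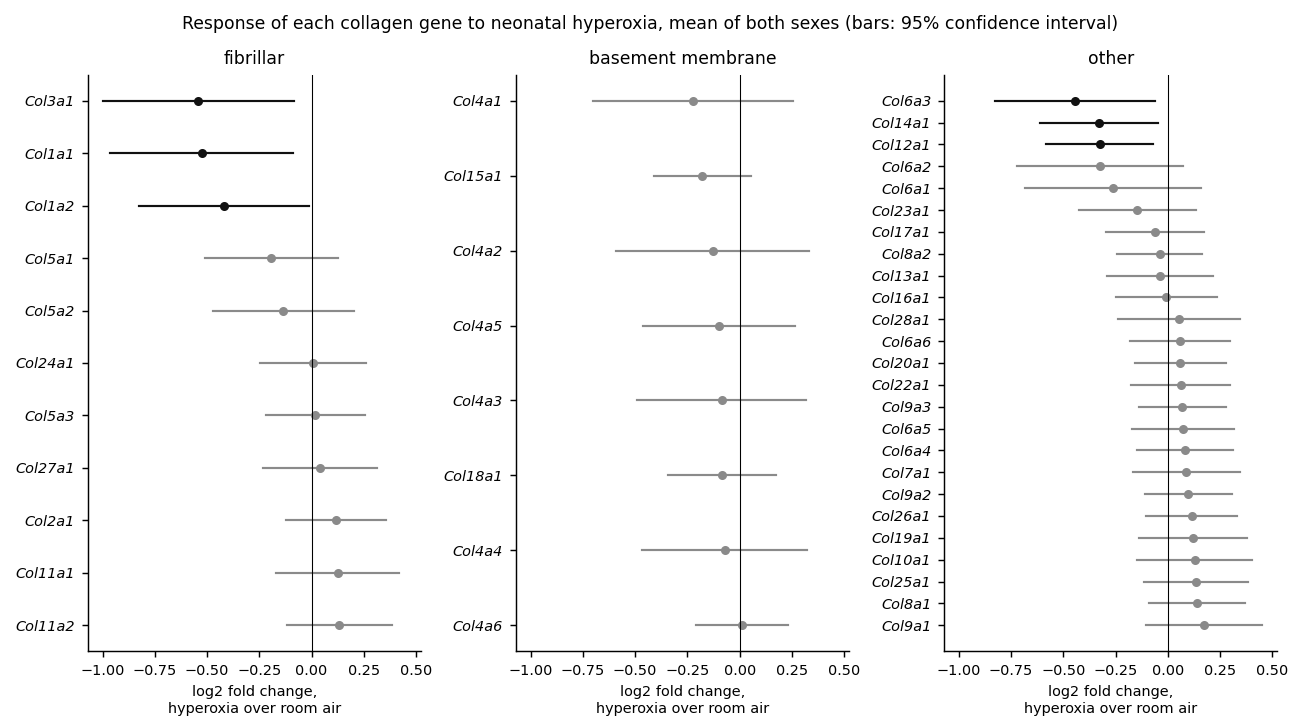
Log2 fold change of each collagen gene, hyperoxia over room air as the mean of both sexes, with its 95% confidence interval from edgeR, by class. Black marks the 6 genes with an unadjusted p under 0.05, all below 0, and grey the other 38; no gene reached an adjusted p under 0.05.

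The fibrillar collagens with the most transcript had the largest differences. *Col1a1* stood at 546, 684 and 954 CPM (lowest, median, highest) in the 6 room air lungs and at 313, 502 and 574 CPM in the 6 hyperoxia lungs. Of the hyperoxia lungs, 5 lay below the lowest room air lung. The log2 fold change was -0.53 with a standard error (SE) of 0.21 and a 95% interval of -0.96 to -0.09, at an unadjusted p of 0.0199 and an adjusted p of 0.927 in edgeR's test. *Col3a1* stood at 518, 700.4 and 927 CPM in room air and at 294, 485 and 626 CPM after hyperoxia, again with 5 hyperoxia lungs below the lowest room air lung. Its log2 fold change was -0.54 (SE 0.22, unadjusted p = 0.0215 in edgeR's test). *Col1a2*, the partner chain of *Col1a1*, ran at 342, 396 and 574 CPM in room air against 202, 333 and 392 CPM, a log2 difference of -0.42 (SE 0.20).

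*Col3a1* and *Col1a2* are shown by the sequence before their RefSeq starts because they are the abundant fibrillar chains with the lower values above for which an entry was matched. RefSeq's sequence table (GRCm38.p6) holds 250 bases before the start of *Col3a1*, at chr1:45311288-45311537 on the plus strand, and 123 bases free of annotated exons are shown for *Col1a2*, at chr6:4505370-4505492 on the plus strand. The latter end 126 bases before the RefSeq start of *Col1a2*, and lie inside the gene as counted, which starts at 4504814 in GENCODE, in an intron of a longer transcript. Capitals mark a match on either strand to the CCAAT box, to the TATA box spelled TATAAA or to the GC box spelled GGGCGG, short motifs of many promoters.
Col3a1: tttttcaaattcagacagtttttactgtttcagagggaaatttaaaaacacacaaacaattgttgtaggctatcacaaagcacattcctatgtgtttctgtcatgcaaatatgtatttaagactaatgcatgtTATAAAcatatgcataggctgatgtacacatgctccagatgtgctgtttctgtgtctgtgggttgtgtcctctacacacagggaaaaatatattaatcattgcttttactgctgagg
Col1a2: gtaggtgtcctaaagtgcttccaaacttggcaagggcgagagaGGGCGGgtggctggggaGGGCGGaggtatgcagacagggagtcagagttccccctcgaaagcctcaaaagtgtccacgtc
The *Col3a1* stretch held TATAAA, found in 12.4% of the 32851 promoters of the table, and the *Col1a2* stretch held GGGCGG, found in 32.7% of them. Of the 35 collagens with an entry, 5 held TATAAA, 21 held GGGCGG and 13 held CCAAT, which 33.8% of all promoters held. These are matches of letters and say nothing of binding.

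Type V chains, which set the width of type I fibrils, were less different. *Col5a1* ran at 137, 154 and 178 CPM in room air and at 102, 138 and 162 CPM after hyperoxia (log2 -0.19, SE 0.16), and *Col5a2* at 94.0, 114 and 148 against 69.1, 106 and 137 CPM (log2 -0.14, SE 0.16). The ranges of both overlapped. With single lungs left out *Col5a1* ran from -0.26 (without hyperoxia male 1) to -0.11 (without hyperoxia male 2) and *Col5a2* from -0.24 to -0.015, with the same 2 lungs at the ends. The other 6 fibrillar genes, *Col2a1*, *Col5a3*, *Col11a1*, *Col11a2*, *Col24a1* and *Col27a1*, had log2 fold changes between 0.01 and 0.13.

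No basement membrane collagen had a 95% interval that excluded 0. *Col4a1* ran at 698, 1003 and 1259 CPM in room air and at 572, 865 and 1166 CPM after hyperoxia, a log2 difference of -0.22 with an SE of 0.23. *Col4a2* ran at 472, 694 and 888 against 415, 642 and 866 CPM (log2 -0.13, SE 0.23). For both genes the groups overlapped over most of their range. Without hyperoxia male 1 the differences were -0.35 for *Col4a1* and -0.25 for *Col4a2*, and without hyperoxia male 2 they were -0.10 and -0.0064. *Col4a3* and *Col4a4*, chains of the alveolar and glomerular membrane, differed by -0.09 and -0.07, *Col4a5* by -0.10 and *Col4a6* by 0.01.

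The outer collagens of basement membranes had steadier values. *Col15a1* ran at 40.6, 45.3 and 57.2 CPM in room air and at 38.3, 41.3 and 43.6 CPM after hyperoxia, and all 6 hyperoxia lungs lay under the room air median. Its log2 fold change was -0.18 (SE 0.11, unadjusted p = 0.128 in edgeR's test). The highest value was that of room air male 1, and without that lung the log2 fold change was -0.10. *Col18a1*, the source of endostatin, ran at 65.4, 67.9 and 79.2 against 57.1, 65.4 and 77.9 CPM, with a log2 fold change of -0.09 (SE 0.13). With single lungs left out it ran from -0.14 to -0.05.

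In type VI the 3 abundant chains had lower values, and *Col6a4*, *Col6a5* and *Col6a6* had log2 fold changes of 0.08, 0.07 and 0.06. *Col6a3* ran at 299.9, 318 and 433 CPM in room air and at 172, 264 and 328 CPM after hyperoxia. Of the hyperoxia lungs, 5 lay below the lowest room air lung. Its log2 fold change was -0.44 (SE 0.19, unadjusted p = 0.0253 in edgeR's test). *Col6a1* (log2 -0.26, SE 0.21) and *Col6a2* (log2 -0.32, SE 0.19) had intervals that included 0. They were -0.43 and -0.47 without hyperoxia male 1, and -0.13 and -0.21 without hyperoxia male 2.

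*Col12a1* and *Col14a1*, the fibril-associated collagens of the FACIT family that sit on type I fibrils, were the remaining genes with an unadjusted p under 0.05. *Col12a1* ran at 57.4, 72.3 and 80.1 CPM in room air and at 50.8, 54.4 and 67.7 CPM after hyperoxia, and all 6 hyperoxia lungs lay under the room air median. Its log2 fold change of -0.33 (SE 0.12) had the smallest unadjusted p of the 44, 0.0144 in edgeR's test. *Col14a1* ran at 47.0, 56.7 and 80.0 CPM in room air and at 42.7, 47.6 and 57.5 CPM after hyperoxia (log2 -0.33, SE 0.14). Its highest value was in room air male 1, the lung with skeletal muscle transcripts, and without that lung the log2 fold change was -0.20. The remaining 7 fibril-associated genes were between -0.01 and 0.17.

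The 3 short-chain, 4 transmembrane and 3 single-chain collagens were all between -0.15 and 0.14. *Col23a1* at -0.15 and *Col8a1*, a chain of vessel walls and of Descemet's membrane, at 0.14 marked the ends of this range. None had an unadjusted p under 0.05.

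**Figure D3:**
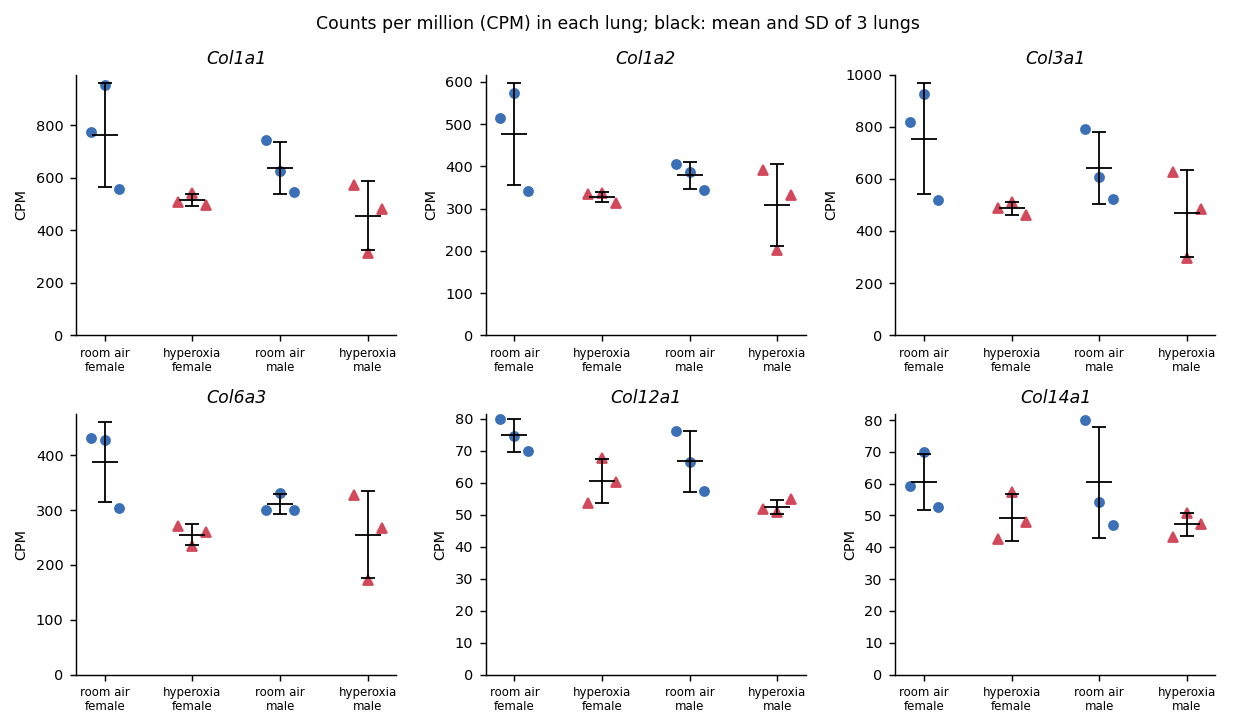
CPM of Col1a1, Col1a2, Col3a1, Col6a3, Col12a1 and Col14a1 in each of the 12 lungs by group, with the mean and SD of 3 lungs. In females every hyperoxia lung lies below every room air lung for Col1a1, Col1a2, Col3a1, Col6a3 and Col12a1, and in males only Col12a1 of these 6 separates.

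The lower values of these genes rested in part on single lungs. The number of collagens with an unadjusted p under 0.05, 6 with all lungs, was 1 without room air female 5, the lung with the highest collagen share (*Col12a1*, lower). Without room air male 1 it was 3, with *Col6a3* and *Col12a1* lower and *Col8a1* higher, and the same 3 genes passed without both lungs that stood apart. It was also 3 without room air female 2 (*Col1a1*, *Col12a1* and *Col14a1*, all lower), and 8 without room air female 6 (7 lower) or without hyperoxia male 1 (8 lower). The log2 fold changes of the 6 genes kept their sign with each lung left out in turn, with *Col1a1* between -0.63 and -0.42 and *Col12a1* between -0.37 and -0.27. The 11 lung fibroblast markers summed to 1959 to 3651 CPM in room air lungs and to 1872 to 3749 CPM in hyperoxia lungs. Room air female 5 had the highest sum of the room air lungs and room air male 1 the lowest. The groups overlapped in this sum. Over both sexes 7 of the 11 markers had lower values, where 44% of all genes tested and 91.8% of abundant protein-coding genes did. In females 11 of 11 did, where 39% of all genes tested and 98.1% of abundant protein-coding genes were lower, with a median log2 fold change of -0.16 and 2 with an unadjusted p under 0.05 (*Dpt* and *Gpc3*). In males 5 of 11 did, where 52% and 32.8% were lower, with a median of 0.13, and at an unadjusted p under 0.05 *Lum* was lower (-1.16) and *Pdgfra* higher (0.59). Of 6 smooth muscle markers, 6 had lower values over both sexes, with a median of -0.19, where 44% of all genes tested and 91.8% of abundant protein-coding genes were lower. At an unadjusted p under 0.05, 2 were lower (*Cnn1* and *Acta2*), where 2.52% of all genes were. Of these markers 5 had lower values in females and 6 in males. Their sum ran from 218.8 to 254.5 CPM in room air females, 181.8 to 214.6 in hyperoxia females, 183.8 to 301.9 in room air males and 141.8 to 228.6 in hyperoxia males, and room air male 1 held the highest sum. Of the markers of both lists 0 were called in edgeR's test over both sexes or in either sex, and their part in the collagen values was not tested.

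Within females, hyperoxia called 0 of the 44 collagens in edgeR's test and in DESeq2's, where 0.00218% of all genes were called by edgeR. At an unadjusted p under 0.05, *Col6a3* was lower and *Col11a1* higher, 1 gene each, where 5.28% of all genes were lower and 7.32% higher. DESeq2 gave 7 collagens at that level, all lower, with no share of all genes taken. With edgeR the number was 11 without room air female 6, of which 6 were lower, 7 without hyperoxia male 1 or hyperoxia male 2, of which 6 were lower, 1 without room air male 5 or hyperoxia male 3, and 0 without room air female 2, room air female 5, hyperoxia female 4 or hyperoxia female 5. Groups did not overlap for 5 collagens that were lower, against 6.42% of all genes, and for 2 that were higher (*Col7a1* and *Col8a1*), against 10.8%. Of the lower ones, *Col1a1*, *Col1a2*, *Col3a1* and *Col6a3* had medians of at least 10 RPKM. At that level 98.1% of protein-coding genes were lower in females, and their share without overlap was not taken. *Col6a3* stood at 304, 429 and 433 CPM in the 3 room air females and at 234, 261 and 271 CPM in the 3 hyperoxia females (log2 -0.60, SE 0.27, adjusted p = 0.377 in edgeR's test). With RUVr at 1, 2 or 3 factors *Col6a3* was called (log2 -0.59), as given below with the share of all genes. *Col3a1* stood at 518, 819 and 927 CPM against 463, 486 and 513 CPM (log2 -0.63, SE 0.32). The hyperoxia females were close to each other, and the spread lay in the room air females.

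*Col11a1*, a minor fibril chain, had the opposite direction. It stood at 14.1, 22.8 and 27.5 CPM in the room air females and at 23.5, 31.4 and 31.6 CPM in the hyperoxia females, which overlapped (log2 0.43, SE 0.20, adjusted p = 0.389 in edgeR's test). Its level followed the receptor share over the 12 lungs (r = 0.945), and with that share as a covariate the log2 fold change was -0.04. Without room air female 5 it was 0.20, and without room air female 6 it was 0.65.

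Within males, 0 of the 44 collagens were called by edgeR or by DESeq2, and edgeR called 0% of all genes. None had an unadjusted p under 0.05, where 1.8% of all genes were lower and 0.899% higher. At that level TMM, no filter and the fit to males alone gave 0 collagens, and DESeq2 gave 1. Protein-coding genes at 1 CPM gave 3 and background subtraction 5, all lower. The fit with the receptor share gave 9, of which 8 were lower, and a block on animal number 8, of which 6 were lower. RUVr with 1, 2 and 3 factors gave 11, 13 and 14, of which 8, 10 and 10 were lower. Shares of all genes at that level were not taken for these fits. With single lungs left out edgeR's number was 0 to 2. *Col12a1* was the 1 collagen whose male groups did not overlap in the lower direction, against 3.89% of all genes. It stood at 57.4, 66.4 and 76.2 CPM in room air males and at 50.8, 51.8 and 55.0 CPM in hyperoxia males (log2 -0.34, SE 0.18, unadjusted p = 0.0623 in edgeR's test). *Col10a1* and *Col11a2* were higher without overlap, against 2.73% of all genes. *Col10a1*, the chain of hypertrophic cartilage, stood at 9.13, 9.96 and 10.3 CPM in room air males and at 10.3, 12.6 and 13.4 CPM in hyperoxia males (log2 0.31, SE 0.19). The highest room air male was at 10.26 CPM and the lowest hyperoxia male at 10.34 CPM. The estimated background share of *Col10a1* had a median of 37.4%. *Col14a1* differed by -0.36 (SE 0.19) in males, and by -0.10 without room air male 1.

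The response of the sexes was compared by the interaction of sex and hyperoxia, which called 0 of 44 collagens and 0% of all genes in edgeR's test, and 0 collagens in DESeq2's. *Col11a1* was the 1 collagen with an unadjusted p under 0.05 (log2 0.61 for the female minus the male response, SE 0.29, adjusted p = 0.578 in edgeR's test), where 8.46% of all genes passed that level. *Col4a3* (log2 -0.60, SE 0.40) and *Col9a2* (0.29, SE 0.20) came next. The intervals were wide, and for *Col4a3* ran from -1.41 to 0.21. Its value was -0.32 without hyperoxia male 1, and 0.0045 once the receptor share entered the fit. The interaction of *Col11a1* was 0.38 without room air female 5, 0.83 without room air female 6 and 0.044 in the fit with that share. It was called with RUVr (0.66), and 5 collagens were called with a block on animal number, both given below with the shares of all genes.

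Class by class, the medians of the basement membrane genes lay farthest apart between the sexes. In females 7 of the 8 had lower values after hyperoxia, where 39% of all genes tested and 98.1% of the 2983 protein-coding genes with a median of at least 10 RPKM were lower. In males 3 of the 8 had lower values, where 52% of all genes and 32.8% of those abundant genes were lower. The class medians were -0.32 in females and 0.06 in males, beside -0.38 and 0.06 for the abundant genes and 0.11 and -0.01 for all genes. The 5 basement membrane genes that were themselves abundant were all lower in females and 1 was lower in males, so that the class had the direction of abundant genes at large in each sex. *Col4a3* stood at 300.2, 388 and 431 CPM in room air females and at 248.8, 273 and 335 CPM in hyperoxia females. In males it stood at 222, 292 and 355 CPM in room air and at 232.5, 323 and 451 CPM after hyperoxia, so that the groups overlapped in both sexes and the highest and the lowest hyperoxia lungs were both male. The fibrillar medians were -0.02 in females and -0.11 in males, and those of the other collagens 0.09 and -0.02. Markers of cells that rest on basement membranes are given beside these values. In females 8 of 8 alveolar epithelial markers and 8 of 8 endothelial markers had lower values after hyperoxia, with medians of -0.54 and -0.41, and in males 2 and 3 of the 8 were lower, with medians of 0.13 and 0.04, and these counts too stand beside the shares of abundant genes above. Summed over the list, the epithelial markers ran from 5446 to 10360 CPM in room air females, 5076 to 6405 in hyperoxia females, 4411 to 6997 in room air males and 4012 to 8458 in hyperoxia males. The endothelial sums ran from 1530 to 2398 CPM in room air females, 1381 to 1818 in hyperoxia females, 1276 to 2043 in room air males and 1136 to 2188 in hyperoxia males. In edgeR's quasi-likelihood test 0 of these markers were called in either sex, while at an unadjusted p under 0.05, 2 epithelial and 1 endothelial marker were lower in females and 0 in males. Their part in the type IV values was not tested.

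Females were then compared with males over both exposures. *Col4a6*, a type IV chain on the X chromosome found in basement membranes of smooth muscle and skin, was the 1 collagen called, where 1.22% of all genes were called. It stood at 37.6, 43.1 and 46.2 CPM in the room air females, 40.0, 45.8 and 47.4 CPM in the hyperoxia females, 28.2, 28.8 and 30.2 CPM in the room air males and 25.8, 26.4 and 32.1 CPM in the hyperoxia males. Every female lung lay above every male lung, as was so for 0.886% of all genes tested. The log2 difference was 0.60 (SE 0.11, adjusted p = 0.00130 in edgeR's test), with 0.54 (SE 0.15) in room air and 0.66 (SE 0.15) after hyperoxia, and the test of the difference between these 2 gave an adjusted p of 0.833 in edgeR's test. Without room air female 6, hyperoxia female 5, hyperoxia male 2 or hyperoxia male 3 it was 0.56 to 0.58 over both exposures. That was under the fold threshold, so that *Col4a6* was not called.

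Background reads on the X chromosome differed by sex in the same direction. In 84 genes of X-linked families that the lung should not use (*Rhox*, *Mageb*, *Magea*, *Ssx*, *Pramel* and *Olfr*), the reads per kilobase relative to autosomal receptor genes were 1.63 to 2.03 in females (n = 6) and 0.813 to 0.936 in males (n = 6). The estimated background share of *Col4a6* had a median of 24.5% before this difference was counted. With background subtracted at 1 density per lung the gene was still called, and with the density of X-linked genes subtracted the log2 difference was 0.41 and the adjusted p 0.781 in edgeR's test. Over all genes, the calls by sex were 559 with no subtraction, 478 with 1 density and 11 with the X-linked density. *Col4a5*, its neighbour, differed by 0.26 (SE 0.18, adjusted p = 0.925 in edgeR's test).

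One other collagen, *Col8a1*, had an unadjusted p under 0.05 by sex, so that 2 of 44 did, against 6.88% of all genes. It was lower in females (log2 -0.28, SE 0.11, adjusted p = 0.505 in edgeR's test). With single lungs left out the value ran from -0.34 to -0.18. Without room air male 1, room air female 2, hyperoxia male 3, hyperoxia female 4 or hyperoxia female 5, no collagen was lower in females at an unadjusted p under 0.05. The estimated background share of *Col8a1* had a median of 55.0%. *Col8a1* stood at 13.5, 14.7 and 14.95 CPM in room air females, 15.7, 15.9 and 19.7 in hyperoxia females, 15.2, 17.7 and 23.5 in room air males and 16.9, 19.9 and 20.5 in hyperoxia males.

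**Figure D4:**
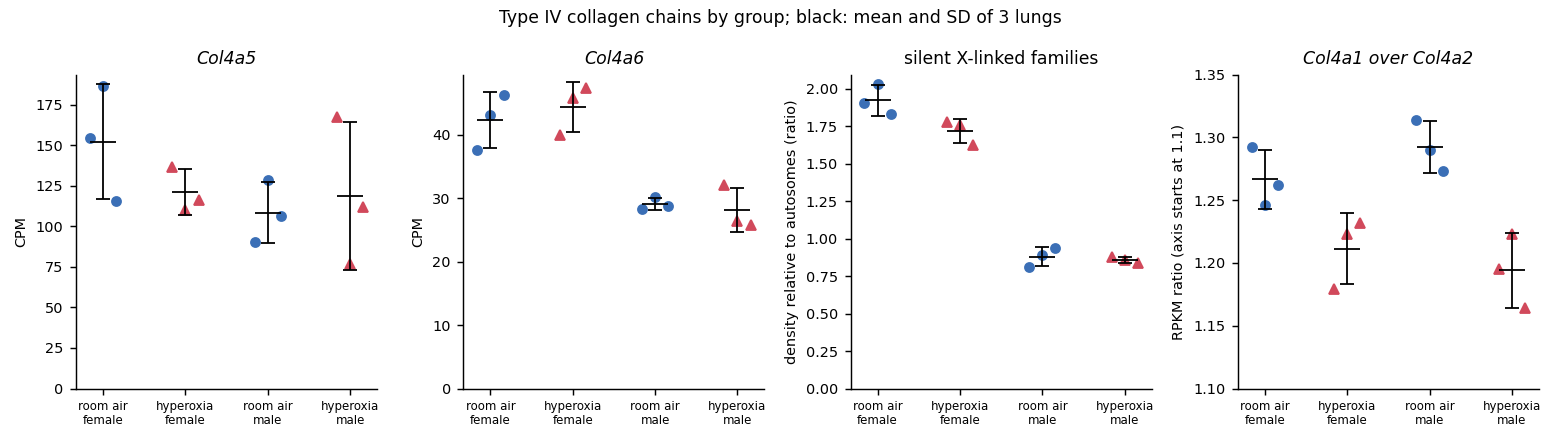
Type IV chains by group, with the mean and SD of 3 lungs: CPM of Col4a5 and of Col4a6, the background density of 84 silent X-linked genes relative to autosomal receptor genes, and the RPKM ratio of Col4a1 to Col4a2 on an axis that starts at 1.1. Col4a6 and the X-linked density are higher in every female lung than in every male lung, and the ratio is lower in every hyperoxia lung than in every room air lung.

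Chains that share a molecule were then compared lung by lung. The 6 type IV genes lie in head-to-head pairs. *Col4a1* and *Col4a2* share 22 bases at their starts on chromosome 8, *Col4a3* and *Col4a4* lie 71 bases apart on chromosome 1, and *Col4a5* and *Col4a6* lie 1308 bases apart on chromosome X, in the GENCODE annotation of mm10. The stretches at the starts of the last 2 pairs are shown because the levels of the first of these pairs were closely correlated and those of the second were not. They are taken from RefSeq (GRCm38.p6) and have the same motifs in capitals: the whole gap between *Col4a3* and *Col4a4* read towards *Col4a4* (chr1:82586850-82586920, minus strand), 250 bases before *Col4a6* (chrX:141474077-141474326, minus strand) and 216 bases for *Col4a5* that end 35 bases before its RefSeq start (chrX:141475169-141475384, plus strand).
Col4a3-Col4a4 gap: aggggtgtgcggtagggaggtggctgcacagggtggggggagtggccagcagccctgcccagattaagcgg
Col4a6: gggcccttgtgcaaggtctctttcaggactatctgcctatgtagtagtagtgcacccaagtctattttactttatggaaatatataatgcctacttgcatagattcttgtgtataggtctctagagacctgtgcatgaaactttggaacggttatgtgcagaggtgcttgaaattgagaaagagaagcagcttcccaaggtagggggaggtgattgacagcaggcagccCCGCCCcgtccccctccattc
Col4a5: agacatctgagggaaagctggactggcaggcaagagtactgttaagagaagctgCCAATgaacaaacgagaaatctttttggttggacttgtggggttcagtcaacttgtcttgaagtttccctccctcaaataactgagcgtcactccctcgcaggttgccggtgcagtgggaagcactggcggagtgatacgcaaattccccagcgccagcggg
The short gap held none of the 3 motifs, the *Col4a6* stretch held GGGCGG on its opposite strand and the *Col4a5* stretch held CCAAT.

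Over the 12 lungs, log2 CPM of *Col4a1* and *Col4a2* were correlated with Pearson's r of 0.988 and Spearman's rho of 0.972, and those of *Col4a3* and *Col4a4* with r of 0.983 and rho of 0.965. *Col4a5* and *Col4a6* had r of 0.427 and rho of 0.448 (permutation p = 0.168 and 0.148, adjusted 0.210 and 0.185 over the 10 pairs fixed for this test). Of the other pairs, *Col1a1* and *Col1a2* had r of 0.975 (rho 0.979), *Col6a1* and *Col6a2* 0.971 (rho 0.881), *Col5a1* and *Col5a2* 0.939 (rho 0.867), *Col6a1* and *Col6a3* 0.913 (rho 0.811) and *Col9a1* and *Col9a2* 0.789 (rho 0.608). For type I and for the first 2 pairs of type IV the permutation p was 1e-05 for both measures, the smallest that 100000 permutations can give. *Col8a1* with *Col8a2* had r of 0.181 (rho 0.238) and *Col11a1* with *Col11a2* 0.0247 (rho -0.0769), with adjusted permutation p of 0.632 and 0.935 for r.

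Correlations were then taken without the 2 lungs farthest from the median of the first chain. Without them r was 0.911 for type I, 0.983 for *Col4a1* and *Col4a2*, 0.978 for *Col4a3* and *Col4a4*, 0.941 for *Col6a1* and *Col6a2*, 0.816 for type V, 0.810 for *Col6a1* and *Col6a3*, 0.589 for *Col9a1* and *Col9a2* and 0.149 for *Col4a5* and *Col4a6*. With the mean of each group subtracted, r was 0.972, 0.998 and 0.985 for the first 3 of these. High correlation was not particular to partners. Over all 105 pairs of the 15 abundant collagens the median r was 0.854, and *Col1a1* with *Col3a1*, which form separate molecules, had 0.987, whereas *Col1a1* with *Col4a1* had 0.669. Over all 946 pairs of the 44 genes the median was -0.02. The abundant genes share the receptor share's variation, given above.

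**Figure D5:**
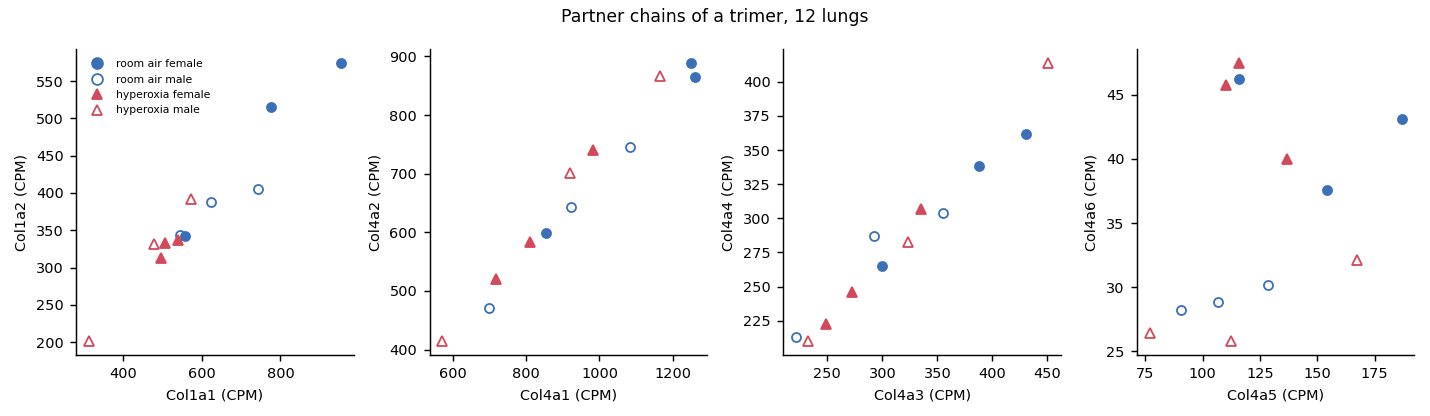
CPM of partner chains in 12 lungs (circles room air, triangles hyperoxia; filled females, open males) for Col1a1 with Col1a2, Col4a1 with Col4a2, Col4a3 with Col4a4 and Col4a5 with Col4a6. The first 3 pairs lie along a line (r 0.975, 0.988 and 0.983), and in the last (r 0.427) the 6 female lungs lie above the 6 male lungs on the Col4a6 axis.

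The ratio of 2 chains within a lung does not depend on the scaling of the library, and it separated the exposures for 1 pair. *Col4a1* over *Col4a2* per kilobase was 1.25, 1.26 and 1.29 in room air females, 1.27, 1.29 and 1.31 in room air males, 1.18, 1.22 and 1.23 in hyperoxia females and 1.164, 1.195 and 1.223 in hyperoxia males. All 6 hyperoxia lungs lay below all 6 room air lungs, and this held within each sex. The mean log2 ratio of the room air lungs was 0.36 ± 0.03 (SD, n = 6) and that of the hyperoxia lungs 0.27 ± 0.03 (SD, n = 6), a difference of -0.09. The difference was -0.07 in females and -0.11 in males. The 22 shared bases were 0.295% of the exon length of *Col4a1* and 0.332% of that of *Col4a2*. The ratios were taken up after their values had been seen, and are given as a description with no test.

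For the other 9 pairs the exposures overlapped over both sexes. Within males 3 of these did not overlap (*Col1a1* over *Col1a2*, *Col6a1* over *Col6a2* and *Col6a1* over *Col6a3*), and within females 2 did not (*Col4a3* over *Col4a4* and *Col8a1* over *Col8a2*). Groups of 3 lungs can separate by chance, and no share over ratios of other genes was taken. Both type VI ratios hold *Col6a1*, so that they are not independent. *Col6a1* over *Col6a3* had a mean log2 ratio of 1.46 ± 0.12 (SD, n = 6) in room air and 1.64 ± 0.15 (SD, n = 6) after hyperoxia, and *Col1a1* over *Col1a2* had 1.63 ± 0.09 and 1.53 ± 0.06, a difference of -0.02 in females and -0.17 in males. *Col1a1* was 3.10 times *Col1a2* per kilobase in room air and 2.89 times after hyperoxia, as means on the log scale, and *Col4a3* was 1.19 and 1.18 times *Col4a4*.

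Genes that make, process and bind collagen were read for the same comparison, hyperoxia against room air over both sexes. In the 5 lists 0 genes were called by edgeR, by edgeR with TMM or by DESeq2. The counts below stand beside 44% of all genes tested that had lower values, 91.8% of protein-coding genes with a median of at least 10 RPKM that did, and 2.52% of all genes that were lower at an unadjusted p under 0.05. In the list for modification in the endoplasmic reticulum, 19 of 21 genes had lower values, with a median log2 fold change of -0.11, and 3 had an unadjusted p under 0.05. *Serpinh1*, the collagen chaperone HSP47, had a mean of 211 ± 57.0 CPM (SD, n = 6) in room air against 137 ± 32.3 CPM (log2 -0.61, SE 0.19, adjusted p = 0.756 in edgeR's test). *P4ha1*, a prolyl hydroxylase, differed by -0.36 (SE 0.12) and *Ppib*, a prolyl isomerase, by -0.30 (SE 0.14).

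Of 10 genes of procollagen processing, 5 had lower values, with a median of 0.01 and 1 unadjusted p under 0.05, and *Pcolce*, the enhancer of the C-proteinase, had the largest difference (log2 -0.43, SE 0.14, adjusted p = 0.778 in edgeR's test). Of 6 crosslinking genes, 4 had lower values with a median of -0.06 and 0 with an unadjusted p under 0.05, and *Lox*, lysyl oxidase, had the largest difference, in the upward direction (log2 0.33, SE 0.19), with 0.74 in males and -0.07 in females. Of 12 fibril-binding proteoglycans and glycoproteins, 9 had lower values with a median of -0.14 and 2 with an unadjusted p under 0.05. *Dcn*, decorin, had the largest difference (log2 -0.64, SE 0.34) with 59.5 ± 32.3 CPM (SD, n = 6) in room air against 38.2 ± 7.07 CPM, a spread that lay in the room air lungs. Of 10 collagen receptors, 6 had lower values with a median of -0.12 and 1 with an unadjusted p under 0.05, and *Mrc2*, which takes up collagen for degradation, had the largest difference (log2 -0.29, SE 0.17).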

How the data were processed

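RNA-Seq libraries of 12 whole lungs were analysed, 3 in each of 4 groups of sex and exposure that were taken from the sample labels. Per the labels and methods, Trim Galore, STAR (mm10, GRCm38) and featureCounts were run in turn by the authors, who deposited raw counts per gene with no normalization. The strand setting of the counting is not given in the sources used here. For the library kit the methods name QIAseq Stranded Total RNA and the labels NEBNext Ultra II Directional. All library columns were matched to 1 sample each. The litter of each lung is not labelled, so that p-values measure the spread between these lungs.

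Counts were fitted with edgeR 4.0.16 (robust quasi-likelihood F-test, upper-quartile normalization, filterByExpr, R 4.3.3) in 1 model of the 4 groups, which had 8 residual degrees of freedom and a biological coefficient of variation of 0.177. Benjamini-Hochberg adjustment ran over all 45828 genes tested. Calls took an adjusted p under 0.05 together with a change of more than 1.5-fold. Shares of all genes at an unadjusted p under 0.05 were taken for this main fit only. ComBat-seq, which the paper used for batch normalization, was not repeated. How many RUVr factors were used is not given in the sources used here. CPM and RPKM used the normalized library sizes and the union exon length in GENCODE release M21. Correlations used log2 CPM (prior count 2). Background was the median reads per kilobase on receptor genes in each lung, times exon length. Depth set a floor of 3 counts at 0.179 to 0.342 CPM, which covers counting error only. The test over both sexes was tried on simulated data with planted changes larger than any collagen difference of the main fit. The other comparisons were not simulated.

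The genes named with statistics over both sexes were 12 listed lung collagens, those called in any comparison and the 3 largest differences of each class at 1 CPM or more. Of the 12, *Col15a1* and *Col18a1* had medians under 10 RPKM. Within a sex and for the interaction they were the 3 with the smallest p, and in each pathway list the largest difference. *Col8a1*, *Col7a1*, *Col11a2*, *P4ha1*, *Ppib*, *Lum*, *Dpt*, *Gpc3*, *Pdgfra*, *Cnn1*, *Acta2* and the ratio of partner chains were added after their values were seen. The collagen classes, gene lists and tests were chosen with earlier results of these data known. Alternatives were DESeq2 1.42.0, the likelihood ratio test, TMM, RUVr with 1 to 3 factors, other filters, background subtraction, the log2 receptor share as a covariate, the animal number as a block, single-sex fits and each lung left out. Python 3.11.15 with pandas 2.3.3, scipy 1.17.1 and matplotlib 3.10.9 made the tables and figures.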

Additional observations from a re-analysis of the deposited data

Results flagged for a closer look

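A value was taken up here when its gap to the nearest lung of the same exposure was large for a group of 6 lungs (Dixon's test at the 95% level). The 44 collagens and their summed share were tested in both exposures, 90 groups of values in all, and 4 were found, where chance gives about 1 in 20. *Col1a1* in hyperoxia male 2 stood at 313 CPM, with the next hyperoxia lung at 480 CPM. This lung also had the fewest counts and the largest receptor share, and without it the log2 fold change of *Col1a1* was -0.42, against -0.53 with all lungs. *Col17a1*, a collagen of hemidesmosomes, stood at 57.5 CPM in room air male 1, with the next room air lung at 48.0 CPM. The 8 tooth, bone and skin markers in that lung summed to 130 CPM against 53.0 to 67.6 CPM elsewhere. Over all lungs, *Krt5*, which the paper counts among basal cell markers, reached 41.7 CPM and *Lor* 34.0 CPM. The rest of the list reached at most 15.9 CPM (*Krt14*), and *Bglap*, *Ibsp* and *Dmp1* of bone and tooth at most 8.75 CPM. *Col2a1*, the cartilage fibril chain, was lowest in hyperoxia female 5 at 53.6 CPM (next 59.1 CPM), and *Col26a1* was lowest in hyperoxia female 2 at 24.4 CPM (next 28.0 CPM). The part of other cell types in these values was not tested.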

How the results depend on the processing

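With every alternative, 0 collagens were called over both sexes or in males. Pathway genes were called over both sexes in 3 alternatives: *Serpinh1* (log2 -0.61) with RUVr at 1 and 2 factors, and *Dcn* (-1.13) and *Lum* (-1.25) with the replicate block. At the adjusted p alone the main fit had 0 collagens over both sexes, RUVr had 7, 10 and 13 of 44 with 1, 2 and 3 factors (4.51%, 5.01% and 6.16% of all genes), with 14, 19 and 20 in females (16.7%, 17.6% and 18.5%) and 0, 5 and 6 in males (0.146%, 0.528% and 0.849%), and the receptor share as a covariate had 2, *Col6a3* and *Col12a1* (0.338% of all genes). With RUVr the 13 over both sexes were all lower and included *Col1a1* (log2 -0.52), *Col3a1* (-0.54) and *Col6a3* (-0.46). RUVr with 1, 2 or 3 factors called 1 collagen in females, *Col6a3* (log2 -0.59), where 4.14% to 4.48% of all genes were called, and 1 in the interaction, *Col11a1* (0.66), where 4.59% to 5.22% were. The cause was not tested. The median interaction over all genes was 0.12, and 0.01 with DESeq2.

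By sex, the count went from 1 to 0 with at least 10 counts in every lung, with only protein-coding genes at a mean of at least 1 CPM, without both lungs that stood apart and with X-linked background subtracted. It ran from 0 to 1 with single lungs left out. In the first 3 of these *Col4a6* had an adjusted p under 0.05 and a log2 difference of 0.55 to 0.58, under the fold threshold, as it had without room air female 6, hyperoxia female 5, hyperoxia male 2 or hyperoxia male 3. The X-linked subtraction and the removal of both lungs were chosen after the data were seen.

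No pairing was taken from the animal numbers: same-numbered lungs of a sex had correlated deviations of 0.0798, -0.203 and -0.35. With the replicate block, 5 collagens were called in the interaction (*Col11a1*, *Col19a1*, *Col24a1*, *Col28a1* and *Col9a1*), where 8.39% of all genes were, and 0 in the other comparisons it allowed, the class medians were -0.13 for fibrillar and -0.026 for other collagens, and *Col4a1* (0.12), *Col4a2* (0.23), *Col18a1* (0.019) and *Col6a1* (0.040) changed sign.

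The medians of the fibrillar and other classes were 0.091 and 0.14 among protein-coding genes at 1 CPM, and that of the others was -0.00981 with the receptor share as a covariate. Signs also changed for *Col5a2* (0.00357) without both lungs, for *Col4a2* (0.049), *Col4a3* (0.080), *Col4a4* (0.076), *Col4a5* (0.081), *Col13a1* (0.037), *Col11a1* in females (-0.038, from 0.43) and the interaction of *Col4a3* (0.0045, from -0.60) with the receptor share, for *Col13a1* (0.016) with background subtracted, and for *Col4a6* by exposure with TMM (-0.0072), DESeq2 (-0.026), no filter (-0.003505) and single lungs left out (-0.042 to 0.047). The correlation of *Col11a1* with *Col11a2* was -0.294 with TMM. With single lungs left out the class medians ran from -0.05 to 0.03 (fibrillar), -0.22 to 0.01 (basement membrane) and 0.01 to 0.11 (other), and the log2 ratio of *Col4a1* to *Col4a2* differed by -0.10 to -0.08. The lowest collagen count in a lung was 89 (*Col10a1*), above the floor of 3 counts.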
